A study of Mus musculus with 48 samples.

Results

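The genes described here are the 10 core genes of the circadian clock, taken by name from 29221 genes counted in the whole livers of 48 mice: Arntl, Clock, Npas2, Per1, Per2, Per3, Cry1, Cry2, Nr1d1 and Nr1d2. They were taken by name for their place in the clock. The rule itself used no measured value, but the genes were chosen with earlier results of these data known. All mice carried a floxed Pparg gene, which encodes a lipid-responsive nuclear receptor. After 16 weeks on diet they received AAV8-TBG-Cre, a viral vector that delivers Cre recombinase under a hepatocyte promoter (here the labelled knockouts), or AAV8-TBG-null (controls). Females on the low fat (LF) diet for 34 weeks made up 2 groups, controls and labelled knockouts, and their livers are labelled healthy. Livers of males and of females on the high fat (HF) diet for 34 weeks are labelled steatosis and made up 4 groups. Another 4 groups, labelled non-alcoholic steatohepatitis (NASH), had 18 weeks of the HF diet and then 16 weeks of a diet rich in fat, cholesterol and fructose (HFCF), again in both sexes and both genotypes. Each of the 4 male groups had 6 livers and each of the 6 female groups had 4, and no male LF group is analysed here. The age of the mice, the time of day at which livers were taken, the light schedule and the feeding state are not given in the sources used here.

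The circadian clock is a loop of transcription factors that turns once a day in nearly every cell, the hepatocyte included. ARNTL (also called BMAL1) pairs with CLOCK or with its relative NPAS2, and the pair binds E-box sequences and turns on the Per, Cry and Nr1d genes. PER and CRY proteins then accumulate and block the pair, while NR1D1 and NR1D2 (the REV-ERB receptors) silence Arntl, Npas2 and Clock through elements that the ROR receptors otherwise use to activate them. In mouse liver, Arntl, Npas2, Clock and Cry1 RNA is known to peak between late night and dawn, Nr1d1 and Nr1d2 RNA by day, and Per3, Per1, Per2 and Cry2 RNA between late day and early night. A single liver therefore gives 1 point on each of these curves, and no phase can be read from the present samples alone.

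The promoter windows below show motifs known from the control of clock genes. The D-box among them belongs to factors outside the 10 genes, which are described further below. RefSeq promoter windows (GRCm38.p6, 250 bases before each start site and 50 after it) were found for 9 of the 10 genes, and Per2 had none. Motifs were searched on both strands: the E-box CACGTG, held by 7.15% of all 32851 windows, its variant CACGTT (4.68%), the ROR element core TAGGTCA (2.61%), the D-box TTANGTAA (2.32%) and the cAMP response element TGACGTCA (1.79%). Each stretch is printed 5′ to 3′ on the strand of its gene with the motif in capitals, and a motif lying on the opposite strand reads as its reverse complement there (AACGTG for CACGTT). A match describes letters in a window, not a bound site.
Arntl (chr7:113207530-113207559, plus strand, the ROR element core after the second start site): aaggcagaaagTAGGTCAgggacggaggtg
Per3 (chr4:151044796-151044890, minus strand, a pair of D-boxes): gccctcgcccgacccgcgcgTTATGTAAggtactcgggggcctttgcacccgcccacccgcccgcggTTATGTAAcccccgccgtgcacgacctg
Per1 (chr11:69098763-69098808, plus strand, an E-box): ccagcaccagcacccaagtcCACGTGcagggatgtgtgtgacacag
Cry1 (chr10:85185089-85185153, minus strand, the E-box variant and then an E-box): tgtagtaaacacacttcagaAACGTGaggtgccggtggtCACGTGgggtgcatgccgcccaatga
Cry2 (chr2:92434210-92434255, minus strand, the E-box variant): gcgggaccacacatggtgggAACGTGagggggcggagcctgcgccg
Nr1d1 (chr11:98775380-98775425, minus strand, the E-box variant): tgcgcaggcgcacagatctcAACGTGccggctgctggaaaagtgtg
None of the 5 motifs was found in the windows of Npas2, Clock and Nr1d2, which says only that those letters are not in them. Arntl and Per3 were called in opposite directions in 5 of the 6 diet comparisons, and the part of these letters in that was not tested.

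Libraries held 15338239 to 22072884 reads on genes, and 3.56% to 5.07% of them fell on mitochondrial genes. Pparg, the targeted gene, was not lower in the labelled knockouts: its level, in TMM-scaled CPM (read counts relative to library size, the scale of all levels below unless FPKM is named), was 27.7 to 38.1 CPM in HF male controls and 18.0 to 61.6 CPM in the matching labelled knockouts. On the HFCF diet it was higher in the labelled knockouts of both sexes (log2 difference 0.81 ± 0.11 SE in males, adjusted p = 0.000805, and 0.97 ± 0.13 in females, adjusted p = 0.0422, the latter lost in 7 of 8 fits that left out 1 library). These counts cover the whole gene, exons outside the deleted part included, so they do not check the deletion. Cidec, a lipid droplet gene that PPARG is known to activate, fell in the labelled knockouts of HF males (-4.68 ± 0.11), HFCF males (-2.57 ± 0.24) and HFCF females (-2.39 ± 0.33), and its values in HF and LF females, -2.56 ± 0.67 and -0.18 ± 0.24, did not pass. Hepatocyte markers were abundant in all libraries (39784 to 121768 CPM summed over 5 genes). Fat markers, of which 4 of 5 are listed in the tables, summed to 1.64 to 8.18 CPM in HF male controls and 2.88 to 19.9 CPM in HFCF male controls, against at most 0.385 CPM in a male labelled knockout and 1.01 CPM in a female liver. Whether the fat marker reads came from fat tissue or from hepatocytes was not tested. Pancreas markers (4 of 5 listed) summed to at most 1.20 CPM in any liver. Animal numbers in the labels run from MHC876 to MNK974 in males and from FNK1084 to FHK1160 in females, without overlap, so sex and cohort cannot be told apart. The labels do not say that the livers of a group came from separate cages or days, so p-values measure the spread between these livers only.

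Per length of transcript, Nr1d1 and Nr1d2 had the highest levels of the 10 genes and Arntl and Npas2 the lowest. In the deposited FPKM values (fragments relative to gene length and library size), the median over 48 livers was 37.5 FPKM for Nr1d1 and 22.9 FPKM for Nr1d2, the nuclear receptors that silence Arntl. Cry2, Per2, Per3 and Per1 followed at medians of 9.10, 7.19, 6.93 and 5.89 FPKM. Clock lay at 2.94 FPKM and Cry1 at 2.06 FPKM, with Arntl at 0.589 FPKM and Npas2 at 0.286 FPKM at the bottom.

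Npas2 and Arntl also had the widest spans between livers. Over single livers Npas2 ranged from 0.125 to 5.18 CPM, a 41.4-fold span, and Arntl from 0.689 to 11.8 CPM, a 17.1-fold span. Per3 spanned 8.47-fold (23.0 to 195 CPM) and Per1 8.11-fold (12.5 to 102 CPM). Nr1d1 spanned 2.22-fold and Cry2 2.53-fold, and Nr1d2 had the narrowest range (86.4 to 172 CPM). Npas2 rests on few reads, 17 in all over the 4 HF female controls, so its folds are the least precise of the 10.

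**Figure D1:**
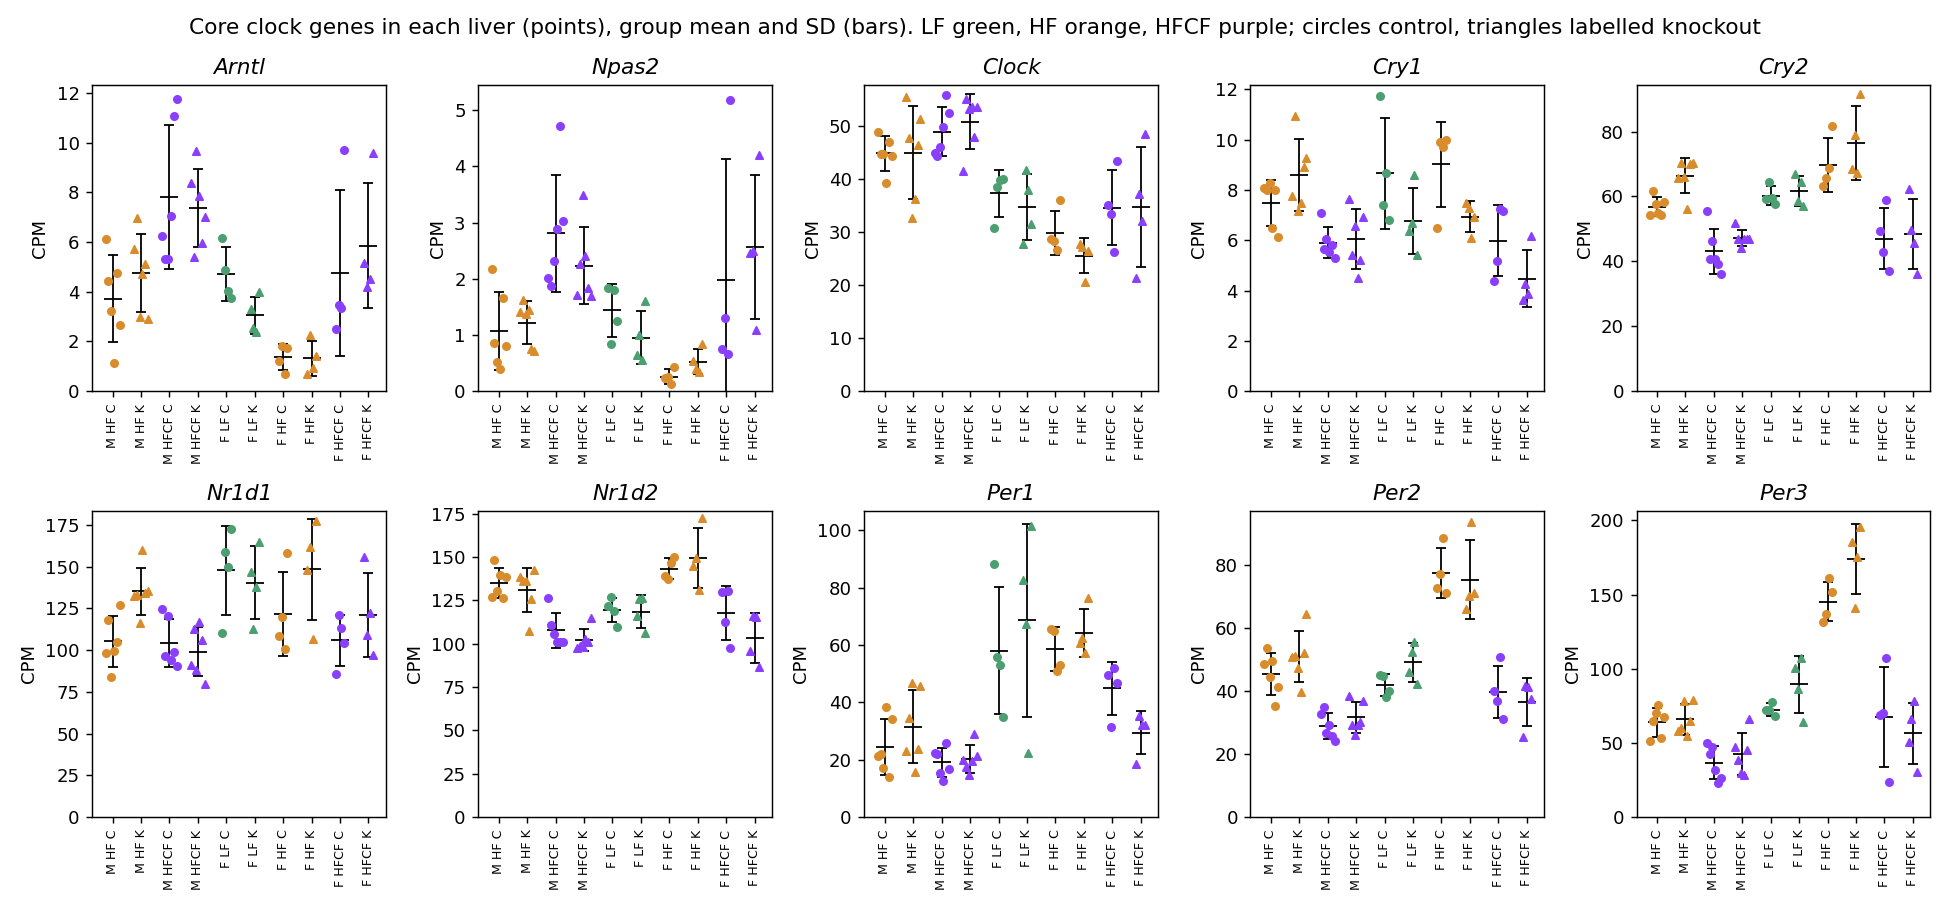
Level of each of the 10 clock genes in CPM (vertical axis, starting at 0) in every liver, by group (M male, F female; C control, K labelled knockout), with the group mean and SD as bars. Female HF livers sit at the bottom for Arntl and Npas2 and at the top for Per3 and Per2, and the ranges of Arntl (0.689 to 2.25 CPM) and Per3 (132 to 195 CPM) in those 8 livers do not meet those of the 8 female LF livers.

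By group mean, Arntl was ordered from HFCF males (7.79 ± 2.9 CPM in controls and 7.37 ± 1.6 CPM in labelled knockouts, SD, n = 6 each) through HFCF females (5.85 ± 2.5 CPM in labelled knockouts and 4.76 ± 3.3 CPM in controls, n = 4 each) to HF males and LF females, whose groups were interleaved, and last to HF females (1.36 ± 0.52 CPM in controls and 1.32 ± 0.69 CPM in labelled knockouts, n = 4 each). Neighbouring groups in this order overlapped except at 1 step: the lowest LF female labelled knockout (2.39 CPM) lay above the highest HF female control (1.81 CPM). Per3 ran nearly the other way. HF females had the highest means (174 ± 24 CPM in labelled knockouts and 145 ± 13 CPM in controls), and HFCF males the lowest (42.5 ± 14 CPM in labelled knockouts and 36.6 ± 11 CPM in controls).

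The first comparison asks what changed when the HFCF diet took the place of the HF diet for the last 16 weeks, within each sex and genotype. In all 4 comparisons Arntl and Npas2 rose, and Per3, Per2 and Cry2 fell. Arntl lies on the plus strand at chr7:113207465-113314126 (GRCm38). Among male controls Arntl, the partner shared by CLOCK and NPAS2, was 1.15, 3.82 and 6.10 CPM (lowest, median and highest of 6) on the HF diet and 5.31, 6.64 and 11.8 CPM on the HFCF diet, a log2 change of 1.07 ± 0.31 SE (adjusted p = 0.0243). Among male labelled knockouts it was 2.92, 4.92 and 6.96 CPM on HF and 5.42, 7.42 and 9.66 CPM on HFCF (0.64 ± 0.21, adjusted p = 0.0210). The male ranges overlapped in both genotypes. In female controls Arntl was 0.689, 1.21, 1.74 and 1.81 CPM on HF and 2.49, 3.36, 3.47 and 9.72 CPM on HFCF (1.82 ± 0.48, adjusted p = 0.0203). In female labelled knockouts it was 0.698, 0.913, 1.40 and 2.25 CPM on HF and 4.17, 4.50, 5.15 and 9.59 CPM on HFCF (2.18 ± 0.40, adjusted p = 0.00811). In both female comparisons every HFCF liver lay above every HF liver, and 1 HFCF liver of each genotype (FNC1142 and FNK1140) stood far above the others. Those 2 are the only HFCF females whose animal numbers fall in the range of the HF females, as set out further below.

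Those male and female values depend in part on a few livers with high Arntl. Without animals MNC948 and MNC950, the male HFCF controls with the most Arntl and chosen for that reason, the change in male controls was 0.69 (adjusted p = 0.181). The calls of Npas2 (adjusted p = 0.0920) and Cry1 (-0.30, adjusted p = 0.152) were lost with it, and 4 of the 7 calls were left. Leaving out single male control livers also ended the Arntl call for HF replicate 6 (0.98), HFCF replicate 5 (0.94) and HFCF replicate 6 (0.92), and leaving out HFCF replicate 3 did so in male labelled knockouts (0.55). Without replicate 5 of the female HFCF controls, Arntl changed by 1.21 (adjusted p = 0.0410) and Npas2 by 1.80 (adjusted p = 0.0365), both still called. Without HF replicate 3 the female control change in Arntl was 1.61 (adjusted p = 0.0567).

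Npas2 (chr1:39193731-39363236, plus strand), whose protein can take the place of CLOCK, rose in all 4 comparisons too. Its log2 change was 1.39 ± 0.36 in male controls (adjusted p = 0.0134), 0.89 ± 0.25 in male labelled knockouts (adjusted p = 0.0112), 2.91 ± 0.78 in female controls (adjusted p = 0.0225) and 2.30 ± 0.46 in female labelled knockouts (adjusted p = 0.0110). The female control HF livers had 0.125, 0.231, 0.249 and 0.434 CPM, each below the lowest HFCF control liver at 0.662 CPM. Without HF replicate 2 or 3 the female control call was lost (2.89 and 2.69). Clock, the other partner, did not pass the test in any of the 4 comparisons, with log2 differences of 0.13 ± 0.07 and 0.18 ± 0.11 in males and 0.23 ± 0.15 and 0.46 ± 0.22 in females (controls first).

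Among the repressors, Per3 (chr4:151003652-151044665, minus strand), a period gene with a strong daily rhythm in liver, fell in all 4 comparisons. Its levels were 132, 137, 151 and 161 CPM in HF female controls and 23.7, 69.0, 70.04 and 107 CPM in HFCF female controls, a log2 change of -1.08 ± 0.35 (adjusted p = 0.0407). In female labelled knockouts they were 141, 175, 185 and 195 CPM on HF and 30.2, 50.7, 66.3 and 78.0 CPM on HFCF (-1.63 ± 0.25, adjusted p = 0.00439). No HFCF female liver reached the lowest HF female liver of its genotype. In males Per3 fell by 0.79 ± 0.17 on the log2 scale in controls (adjusted p = 0.00517) and by 0.63 ± 0.17 in labelled knockouts (adjusted p = 0.00928), and the ranges of the controls did not meet (51.3 to 75.4 CPM against 23.0 to 49.7 CPM). The female control call was lost in 5 of 8 fits that left out 1 library (log2 change -1.41 to -0.80 over the 8), while those of the other 3 comparisons held in every such fit.

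Per2 (chr1:91415982-91459324, minus strand), the period gene whose protein is a main partner of the CRY proteins, fell in all 4 comparisons and kept its call in every fit that left out 1 library. Its log2 changes were -0.65 ± 0.11 (adjusted p = 0.00162) and -0.68 ± 0.11 (adjusted p = 0.000217) in male controls and labelled knockouts, and -0.94 ± 0.15 (adjusted p = 0.00546) and -1.04 ± 0.18 (adjusted p = 0.00624) in the females. In all 4 the highest HFCF liver lay below the lowest HF liver, for example 51.0 against 71.2 CPM in female controls and 35.0 against 35.3 CPM in male controls. With the replicate number as a block the Per2 call in female controls was lost (-0.90, adjusted p = 0.0699). Cry2, a cryptochrome that represses ARNTL and its partner, fell by 0.39, 0.49, 0.55 and 0.66 on the log2 scale (male controls, male labelled knockouts, female controls, female labelled knockouts; adjusted p = 0.00466, 2.93e-05, 0.0194 and 0.0228). The female control call was lost without HF replicate 4 or HFCF replicate 2, and the female labelled knockout call in 5 of 8 fits without 1 library (-0.79 to -0.54).

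The other 4 repressors passed in 1 to 3 of the 4 comparisons. Cry1, the cryptochrome that peaks late, differed by -0.34 ± 0.11 in male controls (adjusted p = 0.0374, lost in 9 of 12 fits without 1 library) and by -0.50 ± 0.14 in male labelled knockouts (adjusted p = 0.0108). In females its differences of -0.56 ± 0.21 and -0.62 ± 0.20 did not pass (adjusted p = 0.0662 and 0.0630). Nr1d2 fell in 3 comparisons, by 0.32 and 0.36 on the log2 scale in male controls and labelled knockouts (adjusted p = 0.00379 and 0.000975) and by 0.53 in female labelled knockouts (adjusted p = 0.0225, lost in 4 of 8 fits without 1 library), and in female controls its value was -0.26 ± 0.10 (adjusted p = 0.0707). Nr1d1 fell only in the male labelled knockout test, by 0.45 ± 0.10 (adjusted p = 0.00189); in male controls its value was -0.01 ± 0.10, and the difference between the genotypes was -0.44 ± 0.15 (adjusted p = 0.111 for the interaction). Per1, an immediate responder to glucocorticoid and cAMP signals as well as a clock gene, fell by 0.64 ± 0.23 in male labelled knockouts (adjusted p = 0.0377, lost in 8 of 12 fits without 1 library and at 0.0654 by DESeq2) and by 1.11 ± 0.19 in female labelled knockouts (adjusted p = 0.00587). In controls its values were -0.35 ± 0.24 in males and -0.36 ± 0.16 in females (adjusted p = 0.303 and 0.110).

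Counted together, 7 of the 10 genes were called in male controls (2 higher, 5 lower), where 22.3% of 14475 genes tested were called (13.0% higher, 9.31% lower). In male labelled knockouts 9 of 10 were called (2 higher, 7 lower), all but Clock, against 41.7% of all genes (21.6% higher, 20.0% lower). In female controls 5 of 10 were called (2 higher, 3 lower) against 30.8% (16.9% higher, 13.8% lower), and in female labelled knockouts 7 of 10 (2 higher, 5 lower) against 14.5% (8.44% higher, 6.01% lower). The ranges of the diets did not meet for 3, 3, 6 and 7 of the 10 genes in the same order, beside 4.47%, 18.8%, 29.6% and 19.4% of all genes. The median log2 change over the 10 genes was -0.33 and -0.47 in males and -0.31 and -0.57 in females (controls first), beside medians over all genes between -0.02 and 0.01. In 1 fit over all 10 groups Cry1 in male controls (adjusted p = 0.0928) and Arntl, Npas2 and Per1 in male labelled knockouts (adjusted p = 0.104, 0.0812 and 0.0534) were no longer called. With the replicate number as a block, the calls of Arntl, Npas2, Per2, Per3 and Cry2 in female controls were lost (adjusted p = 0.0841, 0.0718, 0.0699, 0.0699 and 0.0885). A large share of the transcriptome changed with this diet, and the counts of the 10 should be read against it.

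**Figure D2:**
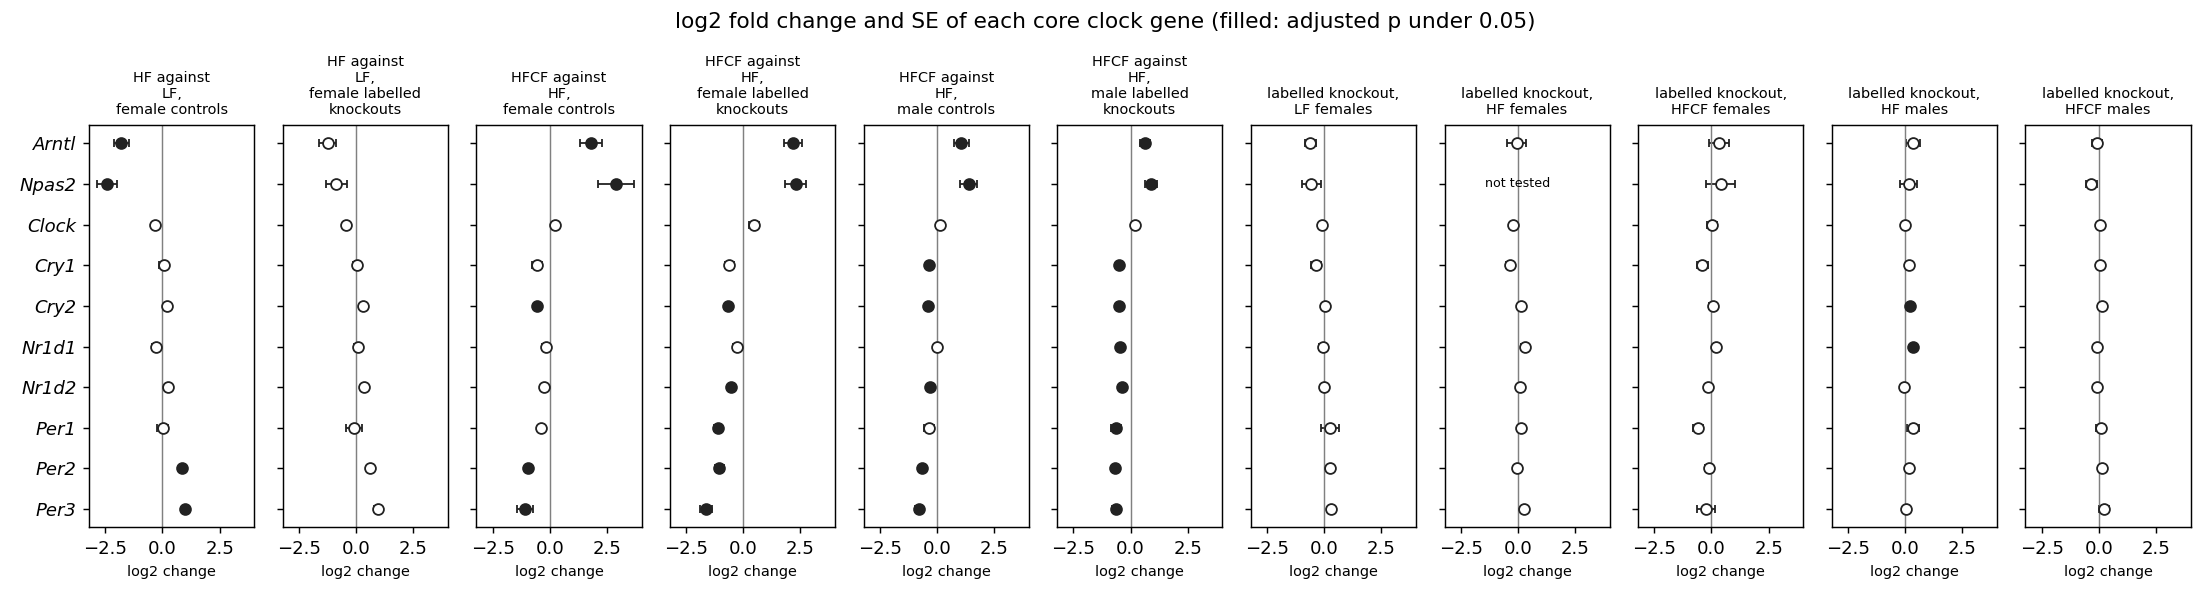
Log2 fold change (horizontal axis) with its standard error for each clock gene in the 6 diet comparisons and the 5 comparisons of labelled knockout with control, from edgeR. Filled points passed an adjusted p of 0.05: Arntl and Npas2 are filled to the right and Per3, Per2 and Cry2 to the left in all 4 panels of HFCF against HF, and filled points are few in the knockout panels (Cry2 and Nr1d1 in HF males).

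The clock factors outside the core loop were counted on a list of 16 genes. Of these, 1 rose and 6 fell in male controls, 1 rose and 7 fell in male labelled knockouts, 1 rose and 7 fell in female controls, and 1 rose and 5 fell in female labelled knockouts (HFCF against HF, background as above). The gene that rose was in each case Csnk1e, a kinase that marks PER proteins for breakdown, by 0.34 to 0.50 on the log2 scale. Among those that fell in all 4 were Ciart, a repressor of the ARNTL pair (-1.30 ± 0.33, -1.70 ± 0.29, -2.17 ± 0.37 and -2.95 ± 0.25 in male controls, male labelled knockouts, female controls and female labelled knockouts), and the D-box activators Tef (-0.58, -0.77, -0.93 and -1.20) and Hlf (-0.62, -0.50, -0.91 and -0.90). Dbp, the third D-box activator, passed in male labelled knockouts alone (-0.72 ± 0.12, adjusted p = 0.000199), and Nfil3, the D-box repressor, fell there too (-0.36 ± 0.11, adjusted p = 0.0195). Medians over the 16 were -0.11, -0.18, -0.35 and -0.35.

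Of 10 genes known as outputs of the liver clock, 4, 3, 4 and 7 fell and 1, 1, 0 and 0 rose in the same order of comparisons. Of all genes tested, 9.31%, 20.0%, 13.8% and 6.01% were called lower and 13.0%, 21.6%, 16.9% and 8.44% higher. Lpin1, a phosphatidate phosphatase, and Gys2, liver glycogen synthase, fell in all 4 (Lpin1 by 1.22, 0.99, 0.84 and 0.95, Gys2 by 0.56, 0.61, 0.83 and 0.72 on the log2 scale). Usp2, a ubiquitin protease, fell in both female comparisons (-1.25 ± 0.38 and -1.72 ± 0.24). The gene that rose in both male comparisons was Cyp7a1, the rate-limiting enzyme of bile acid synthesis (0.99 ± 0.26 and 0.97 ± 0.22).

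Cell type markers moved with the same diet, beside 22.3%, 41.7%, 30.8% and 14.5% of all genes called (order of comparisons as above). Of 7 macrophage markers 6, 6, 6 and 3 rose and of 4 cholangiocyte markers all 4 rose in each comparison, and 3, 5, 5 and 0 of 5 hepatocyte markers fell. Summed hepatocyte marker levels ran from 61361 to 104575 CPM in HF males and from 39784 to 64222 CPM in HFCF males, and from 90768 to 121768 CPM in HF females against 53616 to 109851 CPM in HFCF females. Summed macrophage markers were 253 to 470 CPM in HF males and 446 to 1067 CPM in HFCF males, and 278 to 691 CPM against 754 to 1075 CPM in females. Of 6 stellate cell markers 4, 5, 1 and 5 rose. Of 5 endothelial markers 0, 1, 4 and 1 rose, and of 5 lymphocyte markers 0, 2, 1 and 0. All 5 blood markers fell in male labelled knockouts and none passed in the other 3 comparisons. Among 10 fasting genes 1, 1, 2 and 1 rose and 3, 2, 1 and 2 fell, and among 8 feeding genes 0, 3, 4 and 1 rose and 0, 1, 0 and 0 fell. Of 12 listed genes that respond to glucocorticoids or temperature, 2 were called higher in each comparison and 1, 4, 2 and 2 lower. In male controls and in both female comparisons 11 of the 12 were tested. Of all genes tested, 13.0%, 21.6%, 16.9% and 8.44% were called higher and 9.31%, 20.0%, 13.8% and 6.01% lower. Fkbp5, a glucocorticoid target, fell in all 4 (by 0.58, 0.86, 0.85 and 0.92), and Sgk1, another, rose in all 4 (0.50, 0.47, 0.77 and 0.75). In whole liver, fewer cells of a type and less RNA per cell cannot be told apart, and the part of these cells and signals in the clock gene differences was not tested.

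The second comparison sets the HF diet against the LF diet, in females only, and shares its HF libraries with the one above. In controls Per3 and Per2 rose, and Arntl and Npas2 fell: 4 of 10 clock genes were called where 0.696% of 14216 genes tested were (0.443% higher, 0.253% lower). The ranges of the diets did not meet for 5 of 10, beside 10.0% of all genes. Per3 was 67.8, 72.0, 72.3 and 77.7 CPM on LF and 132, 137, 151 and 161 CPM on HF, a log2 change of 0.998 ± 0.09 (adjusted p = 0.00329). Per2 was 38.3, 39.96, 44.9 and 45.0 CPM on LF and 71.2, 72.6, 77.3 and 88.7 CPM on HF (0.88 ± 0.10, adjusted p = 0.00879). Neither period gene overlapped between the diets.

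Arntl was 3.76, 4.03, 4.88 and 6.17 CPM in LF controls, above every HF control liver, and fell by 1.79 ± 0.32 on the log2 scale (adjusted p = 0.0423). Npas2 was 0.845, 1.25, 1.81 and 1.84 CPM in LF controls and fell by 2.44 ± 0.44 (adjusted p = 0.0423). Leaving out any 1 of the 8 livers ended both calls while the direction stayed (-1.96 to -1.57 for Arntl with adjusted p from 0.0584 to 0.127, and -2.79 to -2.22 for Npas2). Per3 passed in all 8 fits, and Per2 in 7, missing without LF control replicate 4 (0.85, adjusted p = 0.0501). Of the 6 other genes none was called: Nr1d2 differed by 0.26 ± 0.08 (adjusted p = 0.165), Cry2 by 0.21 ± 0.09, Clock by -0.32 ± 0.12, Nr1d1 by -0.28 ± 0.16, Cry1 by 0.05 ± 0.21 and Per1 by 0.00 ± 0.24.

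In female labelled knockouts the edgeR test called 0 of 10 clock genes on HF against LF, where it called 0.155% of 14214 genes. At an unadjusted p under 0.05 in edgeR were 6 of the 10, beside 1902 of the 14214 genes, and DESeq2 called 3 of the 10. Per3 was 64.0, 86.2, 100 and 107 CPM on LF and 141, 175, 185 and 195 CPM on HF, a log2 difference of 0.97 ± 0.16 (adjusted p = 0.0514). Per2 differed by 0.63 ± 0.14 (adjusted p = 0.0980), Arntl by -1.24 ± 0.37 (adjusted p = 0.175) and Npas2 by -0.87 ± 0.46 (adjusted p = 0.442). The Arntl ranges did not meet here either (2.39 to 3.99 CPM against 0.698 to 2.25 CPM), as was so for 6 of 10 clock genes and 8.22% of all genes. The difference between the genotypes in this diet effect was 0.56 ± 0.50 for Arntl, 1.58 ± 0.64 for Npas2 and -0.02 ± 0.19 for Per3. In the interaction test 0 of 10 passed (0 by DESeq2, 0.0% of all genes), and 1 was at an unadjusted p under 0.05, beside 554 of 14938 genes.

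Among the clock outputs, Usp2 and Wee1, a kinase that gates mitosis, rose in HF female controls (1.32 ± 0.16 and 1.54 ± 0.14, adjusted p = 0.0114 and 0.00329), and none fell. None of the 16 auxiliary clock factors was called in either genotype, with 9 of 16 at an unadjusted p under 0.05 in each and medians of 0.29 and 0.29. Of all genes tested, 2314 of 14216 in controls and 1902 of 14214 in labelled knockouts were at an unadjusted p under 0.05. Of 10 genes that fasting is known to raise, Lepr, the leptin receptor, fell in both genotypes (-2.77 ± 0.35 and -4.08 ± 0.61), and in labelled knockouts G6pc, glucose-6-phosphatase (-1.83 ± 0.27), and Gadd45g, a stress-induced gene (-3.48 ± 0.49), fell too. Of 8 genes that feeding raises edgeR called none, with 1 and 5 at an unadjusted p under 0.05 and medians of -0.49 and -0.52. No cell type marker was called in either genotype. At an unadjusted p under 0.05 were 5 of 5 blood markers (median 0.79), 3 of 5 lymphocyte markers (median -0.87) and 1 of 5 endothelial markers in controls, 1 of 5 blood markers (median 0.57) and 1 of 5 endothelial markers in labelled knockouts, and 0 of the macrophage, stellate cell, cholangiocyte and hepatocyte markers in both. The fasting genes differed between the same livers as the clock genes, and their part in the clock gene differences was not tested.

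The female livers can be set out by the animal numbers in their labels, the closest the labels come to a cohort. All 8 HF female livers lie in the range FHK1134 to FHK1160, where 3 LF and 2 HFCF livers also fall. Within that range Arntl was 0.689 to 2.25 CPM on HF, 3.99 to 6.17 CPM on LF and 9.59 to 9.72 CPM on HFCF. Per3 within it was 132 to 195 CPM on HF, 64.0 to 72.3 CPM on LF and 23.7 to 30.2 CPM on HFCF. With both genotypes pooled, the 3 diets did not overlap for either gene inside this range. Among females from FNK1084 to FNC1119, which hold 5 LF and 6 HFCF livers and no HF liver, Arntl was 2.39 to 4.03 CPM on LF and 2.49 to 5.15 CPM on HFCF, and Per3 67.8 to 107 CPM on LF and 50.7 to 107 CPM on HFCF, so there the diets overlapped. Since most HFCF females and no HF females lie there, diet and number range cannot be fully told apart in the females.

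In males from MHC876 to MHK923, Arntl was 1.15 to 6.96 CPM on HF (7 livers) and 5.31 to 8.37 CPM on HFCF (6 livers), and Per3 51.3 to 77.9 CPM against 31.7 to 49.7 CPM. The 3 males from MNC948 to MNC950, all HFCF, had 9.66 to 11.8 CPM of Arntl and 23.0 to 29.5 CPM of Per3, the highest and among the lowest values in males. In males from MHC958 to MNK974 Arntl was 2.64 to 5.12 CPM on HF (5 livers) and 5.97 to 7.84 CPM on HFCF (3 livers, all labelled knockouts). Per3 in the same males was 53.3 to 79.1 CPM on HF and 28.1 to 66.2 CPM on HFCF, so for Per3 the diets overlapped. These number ranges were drawn after the values were seen and are not groups of the study.

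**Figure D3:**
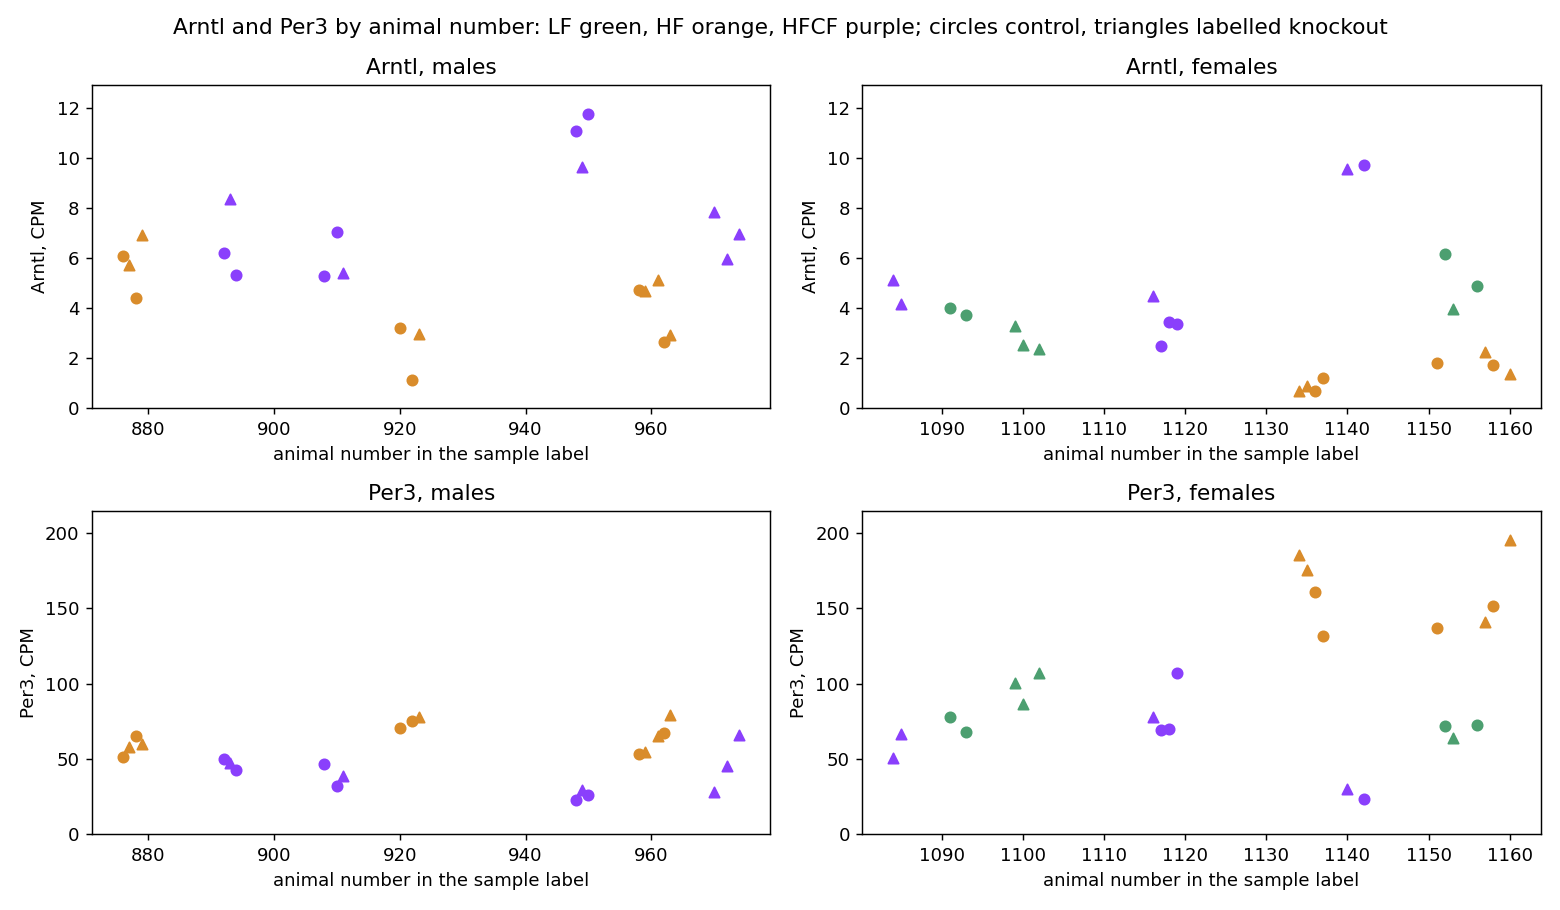
Arntl (top) and Per3 (bottom) in CPM (vertical axes, starting at 0) against the animal number in each label (horizontal axis), males left and females right. The HFCF livers MNC948 to MNC950, FNK1140 and FNC1142 combine high Arntl (9.59 to 11.8 CPM) with low Per3 (23.0 to 30.2 CPM).

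The third comparison sets males against females on the same diet. On the HF diet the activators were higher in males and the period genes lower: 7 of 10 clock genes were called in controls (3 higher, 4 lower, beside 18.1% of 14492 genes, 8.52% higher and 9.58% lower). Among labelled knockouts 6 of 10 were called (3 higher, 3 lower), beside 14.3% of 14260 genes (7.32% higher, 7.02% lower). The ranges of the sexes did not meet for 5 of 10 in each genotype, beside 12.4% and 12.6% of all genes. Arntl was higher in males by 1.45 ± 0.42 in controls (adjusted p = 0.0319, lost in 6 of 10 fits without 1 library) and by 1.86 ± 0.35 in labelled knockouts (adjusted p = 0.00446, kept in all 10). Clock was 39.2 to 48.9 CPM in HF male controls and 26.6 to 36.0 CPM in HF female controls, with no overlap (0.59 ± 0.09, adjusted p = 0.00142), and 0.81 ± 0.15 higher in male labelled knockouts (adjusted p = 0.00335). Npas2 was 2.02 ± 0.56 higher in controls (adjusted p = 0.0279, lost without female HF control replicate 2 or 3, in the 6 of 10 fits without 1 library that tested it) and 1.21 ± 0.36 higher in labelled knockouts (adjusted p = 0.0438, lost in 7 of 10 fits without 1 library).

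Per3 was lower in HF males by 1.18 ± 0.11 on the log2 scale in controls (adjusted p = 5.66e-05) and by 1.42 ± 0.12 in labelled knockouts (adjusted p = 1.32e-05), the clearest sex differences among the 10 by p-value. Per1 was 13.8, 21.5 and 38.5 CPM (lowest, median and highest) in HF male controls and 50.9 to 65.7 CPM in the 4 female controls (-1.25 ± 0.24, adjusted p = 0.00470), and in labelled knockouts it differed by -1.04 ± 0.25 (adjusted p = 0.0158). Per2 differed by -0.76 ± 0.11 and -0.58 ± 0.13 (adjusted p = 0.000941 and 0.0121). For all 3 period genes the highest HF male lay below the lowest HF female in both genotypes. Cry2 was lower in male controls (-0.29 ± 0.07, adjusted p = 0.0197), a call lost without female HF control replicate 4 (-0.21, adjusted p = 0.0623).

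On the HFCF diet the sexes differed in fewer clock genes. In controls 2 of 10 were called, against 2.63% of 15054 genes: Per1 was lower in males (12.5 to 25.8 CPM against 31.3 to 51.8 CPM, -1.24 ± 0.19, adjusted p = 0.00434), and Clock was higher (0.50 ± 0.12, adjusted p = 0.0476, lost in 8 of 10 fits without 1 library). Without female HFCF control replicate 5, 4 genes were called. In HFCF labelled knockouts edgeR called 0 of 10, against 5.4% of 15017 genes, and DESeq2 called 1. At an unadjusted p under 0.05 were 3 of 10, beside 3480 of the 15017 genes. Arntl differed by 0.32 ± 0.24 and Per3 by -0.41 ± 0.26. The difference between the sexes in the HFCF effect was -0.74 ± 0.60 for Arntl in controls and -1.52 ± 0.44 in labelled knockouts (adjusted p = 0.530 and 0.171), and 0.30 ± 0.38 and 1.03 ± 0.32 for Per3 (adjusted p = 0.70 and 0.213). No clock gene passed either of these interaction tests in edgeR, against 0.00646% and 0.013% of all genes, and DESeq2 called 0 and 1. At an unadjusted p under 0.05 were 0 and 3 of 10, beside 2561 of 15491 and 1829 of 15400 genes.

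Other clock factors differed between the sexes on HF in the same livers: 1 of 16 was higher and 7 lower in males in each genotype, Ciart (-1.37 ± 0.27 and -1.22 ± 0.26), Dbp (-0.58 and -0.77), Tef (-0.59 and -0.57), Hlf and Fbxl21 among the lower ones in both. Of the clock outputs 7 and 5 of 10 were lower in males and none higher, among them Cyp7a1 (-2.23 ± 0.25 and -1.64 ± 0.27), Noct (nocturnin), named for its nightly peak (-1.33 ± 0.29 and -1.79 ± 0.54), and Por, the electron donor of cytochrome P450 enzymes (-1.26 ± 0.15 and -0.93 ± 0.14). Of the cell type markers on HF, 2 of 5 endothelial markers, 1 of 5 blood markers and the 1 fat marker tested (Cfd, 4.90 ± 0.64) were higher and 1 of 5 hepatocyte markers lower in male controls. In labelled knockouts 1 of 5 blood markers was higher and no other cell type marker was called, and none of 7 macrophage markers passed in either genotype. Genes that fasting raises were lower in males for 4 of 10 in controls and 1 of 10 in labelled knockouts, and 1 of 8 that feeding raises was higher in controls. Of the temperature- or glucocorticoid-responsive genes 2 of 10 tested were lower in male controls, and 1 was higher and 1 lower in male labelled knockouts. Of all genes on HF, 8.52% and 7.32% were called higher and 9.58% and 7.02% lower in males (controls, then labelled knockouts). The part of these lists in the sex differences was not tested. On HFCF none of the 16 auxiliary factors was called in either genotype by edgeR. At an unadjusted p under 0.05 were 0 and 4 of them, beside 2269 of 15054 and 3480 of 15017 genes.

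The fourth comparison, labelled knockout against control, is the study's genotype question, asked here of the clock. In HF males 2 of 10 clock genes were called, both higher in labelled knockouts, against 18.5% of 14041 genes called (8.57% higher, 9.88% lower). Nr1d1, which silences Arntl, was 83.7, 102 and 127 CPM (lowest, median and highest) in controls and 116, 134 and 160 CPM in labelled knockouts, a log2 change of 0.36 ± 0.09 (adjusted p = 0.0142). Cry2 was 54.2, 56.3 and 61.6 CPM in controls and 56.3, 67.9 and 70.5 CPM in labelled knockouts (0.22 ± 0.06, adjusted p = 0.0226). Both pairs of ranges overlapped. A fit that shared 1 estimate of the spread over all 10 groups called neither (adjusted p = 0.0661 for Nr1d1 and 0.154 for Cry2), and Cry2 was also lost without HF control replicate 1 or 5 or labelled knockout replicate 5 (adjusted p = 0.0522, 0.0537 and 0.0525). The exons of Nr1d1 overlap those of Thra on the opposite strand, and since the libraries are not strand specific, reads from the shared stretch cannot be told apart; Thra had at most 31.1 CPM in a liver. In the same comparison 4 of 5 hepatocyte markers rose, 4 of 6 stellate cell markers fell and 3 of 5 blood markers rose. The 1 fat marker tested, Cfd (-6.79 ± 0.58), fell, as did 1 of 5 endothelial and 2 of 7 macrophage markers, 3 of 8 genes that feeding raises and 2 of 10 that fasting raises, while 1 further macrophage marker and 1 of 10 tested temperature- or glucocorticoid-responsive genes rose. None of 4 cholangiocyte or 5 lymphocyte markers was called. The part of these lists in the Nr1d1 and Cry2 values was not tested.

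In the other 4 knockout comparisons edgeR called none of the clock genes. In HFCF males 0 of 10 were called against 2.21% of 14685 genes, with 0 at an unadjusted p under 0.05. In LF females the count was 0 of 10, and 2 genes had an unadjusted p under 0.05, among them Arntl at -0.60 ± 0.25. In HF females 0 of 9 were called (Npas2 did not pass the filter on low counts), with 1 at an unadjusted p under 0.05. Over all genes 0.0% were called in both of those comparisons. In HFCF females 0 of 10 were called against 0.0534% of 14980 genes, with 1 at an unadjusted p under 0.05, Per1 at -0.59 ± 0.20 (adjusted p = 0.547). DESeq2 called 0 clock genes in each of these 4. Arntl differed by -0.07 ± 0.22 in HFCF males, -0.05 ± 0.43 in HF females and 0.33 ± 0.42 in HFCF females, and Per3 by 0.22 ± 0.22, 0.28 ± 0.11 and -0.24 ± 0.39. Of the 16 auxiliary factors Nfil3 alone rose in HF male labelled knockouts (0.57 ± 0.10, adjusted p = 0.000919), and of the 10 outputs Cyp7a1 (1.01 ± 0.22) and Upp2, a uridine phosphorylase (0.95 ± 0.17), rose there while Wee1 fell (-0.50 ± 0.14). Of all genes tested in HF males, 8.57% were called higher and 9.88% lower.

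The 7 interaction tests, of labelled knockout by diet, labelled knockout by sex and diet by sex, called 0 of the 10 clock genes each in edgeR. The knockout effect in males differed between HFCF and HF by -0.44 ± 0.15 for Nr1d1, the interaction named above (1.56% of 15096 genes were called there, and 0.0% in the other 4 knockout interactions). In the knockout interactions 1 of 10 genes was at an unadjusted p under 0.05 in each and DESeq2 called 0. Over all genes that count was 2574 of 15096 in males and 667 of 15445 in females for HFCF against HF. It was 554 of 14938 for HF against LF in females. For knockout by sex it was 1590 of 15024 on HF and 1515 of 15673 on HFCF. For Per1 the knockout effect in females differed between HFCF and HF by -0.74 ± 0.25 (adjusted p = 0.958), and for Cry1 the knockout effect on HF differed between males and females by 0.56 ± 0.20 (adjusted p = 0.397).

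Livers within a group also differed from one another, and there Arntl varied most closely with Npas2 and Per3. After each liver's log2(CPM + 0.5) was set relative to its group mean, Arntl and Npas2 correlated over 48 livers with Pearson's r = 0.71 and Spearman's rho = 0.63 (permutation within groups, 100000 resamples, two-sided, adjusted over 9 relations p = 4.5e-05 and 0.00027). Arntl and Per3 had r = -0.70 and rho = -0.71 (permutation, adjusted p = 4.5e-05 and 9e-05). Both relations held in males alone (r = 0.73 and -0.64, permutation, adjusted p = 0.00238 and 0.00144) and in females alone (r = 0.71 and -0.76, permutation, adjusted p = 0.0210 for both). Livers with more Arntl than their group mates thus had more Npas2 and less Per3 in each sex.

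For the 7 other genes the relation with Arntl was weaker. Nr1d2 (r = -0.41), Cry1 (r = 0.37) and Clock (r = 0.37) passed over all 48 livers by Pearson's r (permutation, adjusted p = 0.0328, 0.0328 and 0.0384). By Spearman's rho, Nr1d2 (-0.40) and Cry1 (0.35) passed and Clock (0.32) did not (permutation, adjusted p = 0.0372, 0.0468 and 0.0861). None of these 3 passed in males or in females alone. Per2 (r = -0.34), Cry2 (r = -0.27), Per1 (r = -0.10) and Nr1d1 (r = 0.02) did not pass (permutation, adjusted p = 0.0776, 0.182, 0.610 and 0.924). Without the 2 livers farthest from the median of Arntl, female HFCF control replicate 5 and male HF control replicate 4, Npas2 (r = 0.58) and Per3 (r = -0.64) still passed. Nr1d2 (r = -0.31), Cry1 (r = 0.30) and Clock (r = 0.26) kept their direction but no longer passed (permutation, adjusted p = 0.198, 0.160 and 0.280), so those 3 calls depend on these 2 livers. Depth, RNA quality and time of collection are shared by all genes of a liver, and their part in these relations was not tested.

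**Figure D4:**
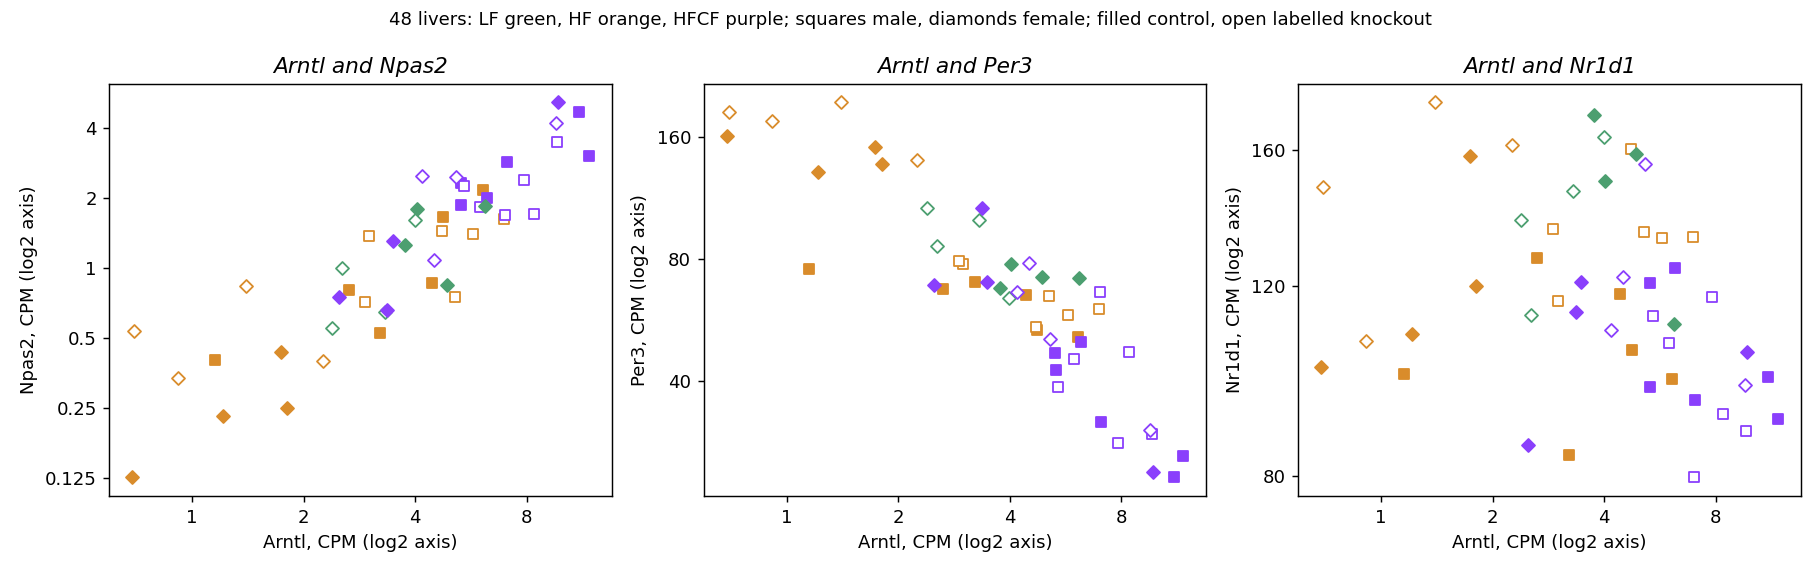
Npas2, Per3 and Nr1d1 against Arntl in CPM (log2 axes) in 48 livers; colour gives the diet, squares are males, diamonds females, filled symbols controls and open symbols labelled knockouts. Npas2 climbs and Per3 descends as Arntl increases from 0.689 to 11.8 CPM, while Nr1d1 lies between 79.8 and 177 CPM over the same livers; the correlations in the text are within groups, not of these points.

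Genes whose group-centred levels ran most like Arntl were ranked over the 13440 genes that averaged 1 CPM or more, as a description over 48 livers that share library and depth. The 6 closest outside the core clock were Chka, choline kinase alpha (r = 0.83), Cldn1, a tight junction protein (r = 0.80), St5 (r = 0.79), Nedd4l, a ubiquitin ligase (r = 0.77), Lgalsl (r = 0.75) and Ypel2 (r = 0.74). The 6 most opposed were Aptx, a DNA repair protein (r = -0.70), Vti1a and Vamp2, vesicle fusion proteins (r = -0.69 and -0.68), Usp2 (r = -0.68), Ripor2 (r = -0.66) and Dbp (r = -0.65). On the same ranking Npas2 stood 11th from the top and Per3 2nd from the bottom.

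The authors' deposited tables cover the 11 diet and knockout comparisons. In the authors' deposited table the adjusted p was under 0.05 for as many clock genes as here in HF males with labelled knockout (2) and in HF against LF female controls (4). For HF against LF in female labelled knockouts the authors' deposited table has 3 such genes where edgeR called 0, and its log2 fold changes for Arntl (-1.24) and Per3 (0.97) equal those given above to 2 decimals. For HFCF against HF the authors' deposited tables have 7, 8, 6 and 8 clock genes (male controls, male labelled knockouts, female controls, female labelled knockouts) where edgeR called 7, 9, 5 and 7.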

How the data were processed

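RNA from 48 mouse livers was sequenced from libraries that are not strand specific, per the labels' protocols. The authors deposited, per the file headers, raw read counts and FPKM per gene for each library and, for 11 comparisons, log2 fold changes with p-values and adjusted p-values. The submitters' processing notes name STAR 2.6.1, HTSeq 0.6.1, DESeq2 and GRCm38, with no role or order. The 11 tables were joined on gene identifier into 29221 genes by 48 libraries. Of the 29181 genes shared with GENCODE M21, 97.3% had the same coordinates.

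Counts were tested with edgeR 4.0.16 in R 4.3.3 (quasi-likelihood F test, TMM scaling, filterByExpr) on the groups of each comparison, with Benjamini-Hochberg adjustment over all genes tested, and a gene was called at an adjusted p under 0.05. The procedure was checked on simulated counts with the same spread for every gene, so that check does not cover genes whose spread differs. Adjusted p-values are from edgeR unless DESeq2 is named, and values after ± are standard errors (SE) of the log2 fold change unless SD is named. CPM was scaled by TMM and averaged per group. Levels between genes were compared in the deposited FPKM. Co-variation used log2(CPM + 0.5) centred on each group and permutations within groups.

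Alternatives were DESeq2 1.42.0 (Wald test, and its size factors in edgeR), no filter on low counts, 1 fit over all groups, the replicate number as a block, and each library left out in turn. The named genes are the 10 clock genes, genes called on fixed lists (auxiliary clock factors, clock outputs, fasting, feeding, and temperature or glucocorticoid genes), and the 6 genes most like and the 6 most opposed to Arntl with a named symbol. Cidec falls outside this rule and was added after its values were seen. The genes and lists were chosen with earlier results of these data known. Lists of markers for hepatocytes, macrophages, stellate cells, cholangiocytes, endothelium, lymphocytes, blood, fat and pancreas were counted beside them. Values of 1 gene on these lists are not reported here.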

Additional observations from a re-analysis of the deposited data

Results flagged for a closer look

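In 7 of 100 sets of 1 gene in 1 group, the highest or lowest liver lay farther from the rest than Dixon's 95% limit, and chance gives about 1 in 20. Replicate 5 of the female HFCF controls had 9.72 CPM of Arntl where the other 3 had 2.49 to 3.47 CPM. The same liver had 5.18 CPM of Npas2, against 0.662 to 1.31 CPM in the others. Clock was low in replicate 1 of the female LF controls (30.8 CPM, others 38.4 to 39.96 CPM), and Cry1 in replicate 1 of the female HF controls (6.47 CPM, others 9.71 to 9.98 CPM). Cry2 was low in replicate 4 of the HF male labelled knockouts (56.3 CPM, others 65.5 to 70.5 CPM) and high in replicate 1 of the HFCF male labelled knockouts (51.9 CPM, others 44.0 to 46.9 CPM). Nr1d2 was high in replicate 6 of the HFCF male labelled knockouts (115 CPM, others 97.7 to 103 CPM).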

How the results depend on the processing

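Over the 49 calls of a clock gene, no direction reversed under any alternative run. DESeq2's Wald test kept 48, its size factors 49, no filter on low counts 47, and 1 fit over all groups 40; 30 calls held in every fit without 1 library that tested the gene and 19 were lost in at least 1. With 1 fit over all groups the number of clock genes called was 0 in HF male labelled knockouts against controls, 3 in HF against LF in female labelled knockouts and 1 in males against females for HFCF labelled knockouts. DESeq2's Wald test gave 3 and 1 in the last 2 of these and 1 in diet by sex for labelled knockouts, and no filter on low counts gave 2 in HF against LF in female labelled knockouts. Without male animals MNC948 and MNC950, chosen after seeing the data, 4 were called in HFCF against HF male controls. Of the 9 relations with Arntl, by Pearson's r, 5 passed in all and 2 in males only, 2 in females only and 2 without the 2 farthest livers. The cause of these differences was not tested.

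In none of the comparisons did every same-numbered pair of livers correlate above 0.1, and the main fits did not pair livers. Single pairs of labelled knockout and control reached 0.46 in HF females and 0.40 in LF females, so this rule cannot exclude that some livers are paired. Pairing by animal number was not examined. With the replicate block the number called was 2 in HF against LF female controls, 0 in HFCF against HF female controls, 4 in males against females for HF controls and 0 for HFCF controls, and 32 of the 49 calls were kept. Pparg in HFCF females was 1.05 (adjusted p = 0.709) with the block and 1.07 (adjusted p = 0.339) without animals FNK1140 and FNC1142, chosen after seeing the data.

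With 1 library left out, the number of clock genes called ranged from 1 to 2 (HF males), 0 to 1 (HFCF males) and 0 to 0 (LF, HF and HFCF females) for labelled knockout. It ranged from 1 to 2 and 0 to 1 for HF against LF (controls, labelled knockouts). For HFCF against HF it was 5 to 7, 7 to 9, 2 to 7 and 5 to 8 (male controls, male labelled knockouts, female controls, female labelled knockouts). For males against females it was 5 to 8 and 5 to 6 on HF and 1 to 4 and 0 to 1 on HFCF, and 0 to 0 in the interactions. Pparg ranged from 0.11 to 0.41 (HF males), 0.75 to 0.87 (HFCF males), 0.30 to 0.78 (LF females), 0.43 to 0.77 (HF females) and 0.83 to 1.03 (HFCF females). Depth limits Npas2 most, with 17 reads over the 4 HF female controls.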
